A study of Bos taurus with 24 samples.

Results

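The comparison described here is between mammary gland of cows under a repeatedly shifted light cycle and mammary gland of cows under a constant one. Its members are the 12 mammary libraries of a series of 24 RNA-seq libraries, chosen by the tissue and treatment in their labels, 6 control and 6 phase shift. The animals were multiparous Holstein cows, a dairy breed, in late gestation. Milking had stopped 60 d before expected calving, so the glands were in the non-lactating dry period. From 35 d before expected calving all cows lived under 16 h of light at 150 lx and 8 h of dark. Control cows kept a fixed cycle. The cycle of phase shift cows jumped forward by 6 h every 3 d, and these cows had been through 2 weeks of this and at least 5 shifts when the gland was biopsied 21 d before expected calving. The groups lived in different partitions of 1 barn, and treatment cannot be told apart from partition. No source used here gives the clock time at which the glands were sampled. The labels name no genotype, and each mammary library carries the label of its own cow.

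The dry period is the time in which the mammary epithelium of a dairy cow is renewed between lactations. Toward calving its secretory cells build up the transcripts for milk proteins, milk fat and lactose, under the control of prolactin, glucocorticoids and falling progesterone. Mammary cells also hold a molecular clock, a feedback loop of transcription factors that runs with a period of about a day and is set by light through the brain and by hormones and feeding. Repeated shifts of the light cycle keep such clocks from settling into a fixed phase, and the comparison asks whether the transcriptome of the preparing gland changes with them.

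The deposited tables give Ensembl gene IDs with no symbols, and 0 of the 27607 IDs matched the RefSeq gene table used here. Genes are therefore described by abundance, by tissue and by how they behaved across cows, and 4 IDs are named. The label "mammary" could not be checked against marker genes. Each mammary library had a median rank correlation of 0.860 to 0.969 with the other mammary libraries, against 0.727 to 0.762 with the liver libraries of the series. Depth per library lay between 5.05 and 13.1 M (mega counts) in all. Control libraries held 5.46 to 13.1 M (median 6.72 M) and phase shift libraries 5.05 to 10.5 M (median 8.74 M), so the depths of the groups overlapped.

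The libraries of control cow 26 (26C) and phase shift cow 21 (21PS) stood apart from the other 10, 1 in each group. In 26C, 721 genes exceeded the median level in the other libraries by 4-fold or more, and 735 fell short of it by as much. In 21PS these numbers were 475 and 310. The other 10 libraries had 10 to 73 genes that far above and 27 to 119 that far below. The tests between treatments are therefore given with all 12 libraries and again with the 10 left without 21PS and 26C. The plot of 4-fold genes by cow shows the gap.

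**Figure D1:**
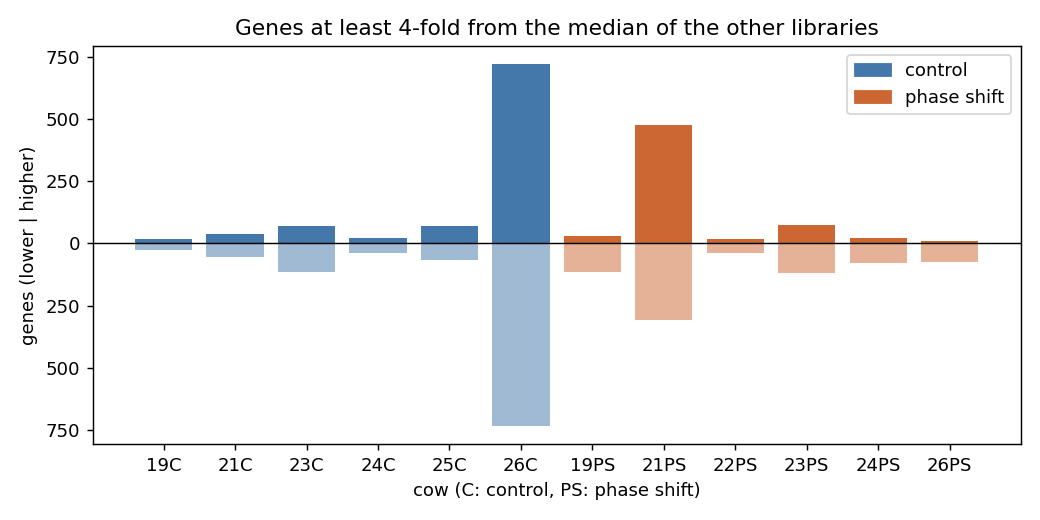
Number of genes at least 4-fold above (solid bars, upward) or below (pale bars, downward) the median of the other libraries that do not stand apart, for each of the 12 cows, with control in blue and phase shift in orange. Cows 26C and 21PS exceed the other 10 cows in both directions, with 721 and 475 genes higher and 735 and 310 lower.

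No gene could be called different between glands of phase shift and control cows by edgeR's quasi-likelihood test. Of 15547 genes tested, 0 (background 0%) had a Benjamini-Hochberg adjusted p under 0.05, the smallest being 0.923. At an unadjusted p under 0.05 stood 739 genes, which is 4.75% of those tested, 362 of them higher (2.33%) and 377 lower (2.42%) under phase shifts. An even spread of p would put 5% of genes there. DESeq2 and limma-voom also called 0 genes. At unadjusted p under 0.05 DESeq2 had 985 of 22853 genes (4.31%) and limma-voom 623 of 15547 (4.01%). The edgeR number at unadjusted p under 0.05 moved with single cows. It was 1251 (8.07%) without phase shift cow 23 and 474 (3.07%) without phase shift cow 26, with 0 genes called in either.

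Without 21PS and 26C edgeR again called no gene. Of 15420 genes tested, 0 (0%) were called, the lowest adjusted p was 0.733, and 830 genes (5.38%) had an unadjusted p under 0.05, 402 higher and 428 lower. Limma-voom on the same 10 libraries called 0 genes, with 854 (5.54%) at unadjusted p under 0.05. DESeq2 called 19 genes of 23342 with a p (0.0814%), 4 higher and 15 lower under phase shifts. It gave no adjusted p to 5032 genes, with or without a p, and these could not be called. At unadjusted p under 0.05 it had 1107 (4.74%). The plot of unadjusted p values shows a nearly level distribution for both sets of libraries.

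**Figure D2:**
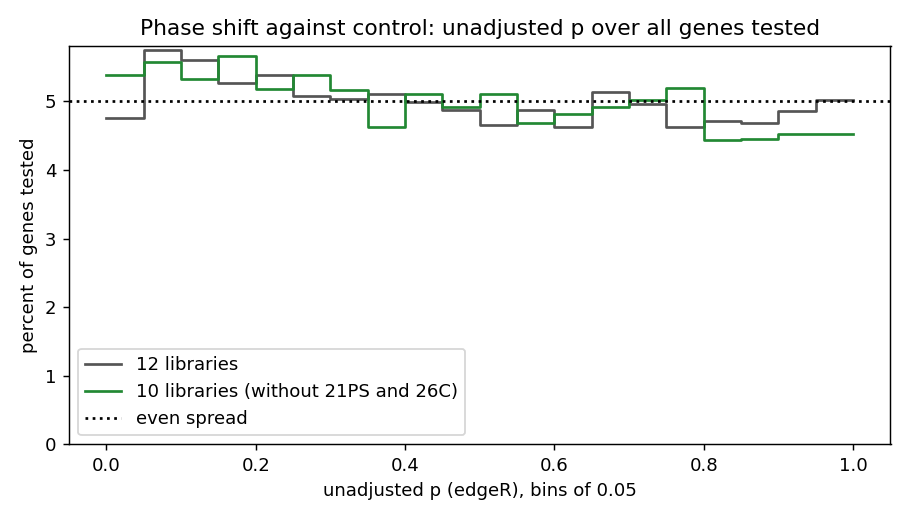
Percent of the genes tested (vertical axis) in each bin of 0.05 of the unadjusted edgeR p (horizontal axis), for the 12 libraries in grey and the 10 libraries without 21PS and 26C in green, with a dotted line at the 5% of an even spread. The lowest bin holds 4.75% of genes with 12 libraries and 5.38% with 10.

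Most measured differences between the groups were small. With 12 libraries the median size of a log2 fold change, phase shift against control, was 0.16, and 91.6% of genes differed by less than 1.5-fold. With 10 libraries the median size was 0.14 and 94.2% of genes were under 1.5-fold. Direction was nearly balanced, with 48.7% of genes higher under phase shifts in 12 libraries and 49.4% in 10.

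How tightly a change could be bounded depended on abundance. Genes were divided into 4 equal classes by their mean log2 CPM (counts scaled to library size). In the class of most abundant genes, with a median of 104 CPM and 78.8% of all counts, 89.0% of genes had a 95% confidence interval inside a 2-fold difference in either direction, and 69.7% inside 1.5-fold. In the 10 libraries these shares were 95.5% and 83.8%. In the class of least abundant genes, with a median of 3.51 CPM, 35.6% of genes had an interval inside 2-fold and 3.55% inside 1.5-fold. For most genes of that class the interval thus reached beyond 2-fold. These shares describe the width of the intervals and not which differences could be detected. The share of genes at unadjusted p under 0.05 was alike in the 4 classes, from 4.58 to 4.99% beside 4.75% of all genes tested.

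**Figure D3:**
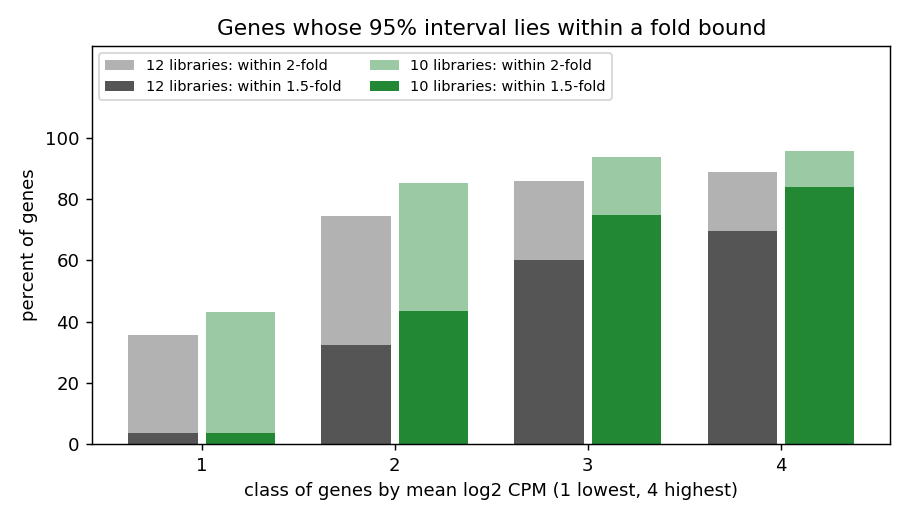
Percent of genes (vertical axis) in each of 4 equal classes of mean log2 CPM (horizontal axis, 1 lowest to 4 highest) whose 95% confidence interval for phase shift against control lies within 2-fold (pale) or 1.5-fold (dark), for 12 libraries in grey and for 10 libraries without 21PS and 26C in green. The share rises with abundance, from 35.6% in the lowest to 89.0% in the highest class for the 2-fold bound with 12 libraries.

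Larger measured differences came mostly with the libraries that stand apart. With 12 libraries 365 genes (2.35%) were more than 2-fold different, 97 higher and 268 lower under phase shifts. For 277 of them (75.9%) the library farthest from the median was 26C, in 202 genes, or 21PS, in 75. Over all genes tested 1 of these cows was the farthest in 57.1%. Of the 365 genes 333 were also tested without 21PS and 26C. There 112 were still more than 2-fold different in the same direction, and 63 had turned sign.

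Complete separation of the groups was rare. All 6 phase shift cows lay above or below all 6 control cows for 47 genes (0.302%), 27 higher and 20 lower. In the 10 libraries the groups of 5 did not overlap for 145 genes (0.933%), 74 higher and 71 lower. With 12 libraries, 0 genes had a read in every library of a group and none in the other. With 10 libraries there were 2 such genes in each direction, and each had 8 to 11 reads summed over its 5 libraries.

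The genes of smallest p in each direction show how far single genes differed. They were chosen by this p on the same counts. Their fold changes, intervals, group separation and tests of the tissue difference are therefore a description and no second test. ENSBTAG00000044087 was measured in control cows at 34.4 CPM in 19C, 29.3 in 21C, 26.7 in 23C, 27.9 in 24C, 35.4 in 25C and 21.6 in 26C. In phase shift cows it stood at 52.1 CPM in 19PS, 43.0 in 21PS, 51.6 in 22PS, 41.9 in 23PS, 37.5 in 24PS and 48.6 in 26PS. The lowest phase shift cow, 24PS, lay just above the highest control cow, 25C, so the groups did not overlap, and neither 21PS nor 26C decided this. The difference was 1.57-fold (95% confidence interval 1.28 to 1.93; log2 fold change 0.65, SE 0.14), with an edgeR adjusted p of 0.923. Without 21PS and 26C the log2 fold change was 0.59 (SE 0.13, edgeR adjusted p = 0.902), and DESeq2 on those 10 libraries gave an adjusted p of 0.0437. The gene had a median of 4.45 CPM in liver, where its log2 fold change was 0.09 (SE 0.19). The edgeR test of the difference between tissues gave an unadjusted p of 0.0186 and an adjusted p of 0.737.

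ENSBTAG00000000406 was lower in abundance and also higher in every phase shift cow than in any control cow. Control cows had 8.80 CPM in 19C, 7.64 in 21C, 10.1 in 23C, 7.53 in 24C, 5.93 in 25C and 9.49 in 26C. Phase shift cows had 13.6 CPM in 19PS, 16.7 in 21PS, 12.6 in 22PS, 13.7 in 23PS, 11.4 in 24PS and 12.3 in 26PS. The highest value was that of 21PS, and the groups also did not overlap among the other 10 cows. The difference was 1.62-fold (95% confidence interval 1.27 to 2.06; log2 fold change 0.70, SE 0.16, edgeR adjusted p = 0.923). Without 21PS and 26C the log2 fold change was 0.67 (SE 0.17, edgeR adjusted p = 0.902). In liver the log2 fold change was 0.34 (SE 0.23), the same direction, and the edgeR adjusted p of the tissue difference was 0.808.

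ENSBTAG00000047138 had the steepest fold of the 4 named genes, and few reads. Control cows had 23 counts in 19C, 27 in 21C, 19 in 23C, 11 in 24C, 28 in 25C and 25 in 26C. Phase shift cows had 13 counts in 19PS, 11 in 21PS, 4 in 22PS, 6 in 23PS, 7 in 24PS and 3 in 26PS. On the CPM scale the control cows lay between 1.24 and 4.88 and the phase shift cows between 0.324 and 1.49, and the groups overlapped only through 24C and 21PS. The log2 fold change was -1.79 (SE 0.40, 95% confidence interval -2.65 to -0.92, edgeR adjusted p = 0.923). Without 21PS and 26C edgeR's filter on low counts removed the gene, while DESeq2 gave a log2 fold change of -2.03 with an adjusted p of 0.0437. In liver it stood between 0 and 0.150 CPM and was not tested there.

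ENSBTAG00000020721 was lower in every phase shift cow than in any control cow. Control cows had 13.5 CPM in 19C, 11.3 in 21C, 13.3 in 23C, 13.0 in 24C, 11.7 in 25C and 17.0 in 26C. Phase shift cows had 9.16 CPM in 19PS, 7.20 in 21PS, 7.24 in 22PS, 10.03 in 23PS, 9.04 in 24PS and 8.74 in 26PS. Both 26C, the highest control cow, and 21PS, the lowest phase shift cow, lay at the ends, and the groups did not overlap with or without them. The log2 fold change was -0.63 (SE 0.15, edgeR adjusted p = 0.923), and -0.50 (SE 0.15, adjusted p = 0.902) without those cows. In liver it was 0.02 (SE 0.15). The test of the tissue difference gave an unadjusted p of 0.00505 and an edgeR adjusted p of 0.737. It contains the mammary difference by which the gene was chosen.

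**Figure D4:**
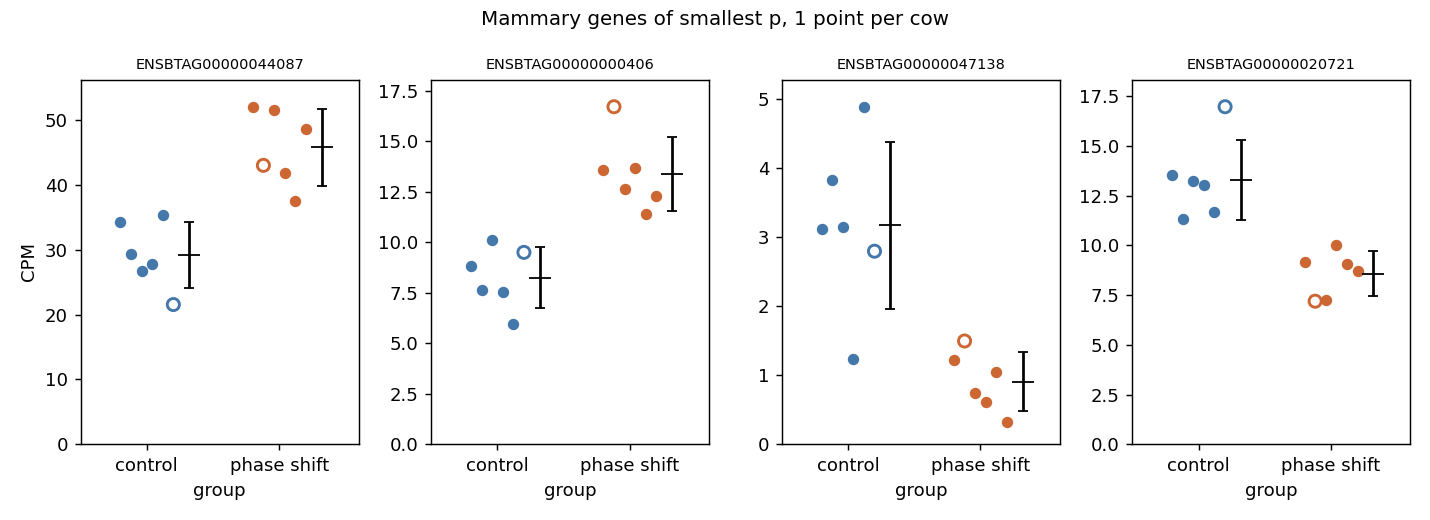
CPM (vertical axes, each from 0) of the 4 named genes in each control (blue) and phase shift (orange) cow, with the mean and SD of all 6 cows in black beside the points. Open circles are 26C and 21PS. The groups do not overlap for 3 of the 4 genes, and for ENSBTAG00000047138 they overlap through 24C and 21PS.

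The 19 genes called by DESeq2 without 21PS and 26C were mostly lower under phase shifts and covered a wide range of abundance. The 4 higher genes had log2 fold changes of 0.60 to 1.44, and the 15 lower genes of -2.39 to -0.52. Mean levels ran from 3.08 to 385 CPM in control cows and from 0.589 to 159 CPM in phase shift cows. None of them was at 0 in any of the 10 libraries. Of the 17 genes that passed edgeR's filter on those libraries, 17 had an unadjusted p under 0.05, with adjusted p between 0.733 and 0.902. The genes were chosen on the same counts, so this is no second test. In the edgeR fit of all 12 libraries, 12 of the 19 had an unadjusted p under 0.05.

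The 2 cows left out of that fit gave a mixed answer on the same 19 genes. Phase shift cow 21 lay on the phase shift side of the midpoint between the group means for 10 of 19, and control cow 26 lay on the control side for 13 of 19. For 4 genes both lay on the side of their own group. In liver 13 of the 19 were tested, 7 had the same direction, and 1 had an unadjusted p under 0.05, beside 5.91% of all liver genes tested.

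Genes more abundant in mammary gland than in liver were higher about as often as lower under phase shifts, in 684 of 1280 with 12 libraries and 636 of 1252 with 10. Mammary-enriched genes were taken as those at least 8-fold higher in mammary than in liver, averaged over treatments, with an edgeR adjusted p under 0.05. Of 1280 such genes 56 had an unadjusted p under 0.05 (4.38% beside 4.75% of all genes tested), 33 higher and 23 lower, and their median log2 fold change was 0.03, beside -0.01 over all genes tested. Among the 10 libraries, 89 of 1252 did (7.11% beside 5.38%), 44 higher and 45 lower, with a median of 0.01. The 9336 genes that differed by less than 2-fold between tissues had 388 at unadjusted p under 0.05 (4.16%) and a median of 0.00247, and in the 10 libraries 409 of 9268 did (4.41%). The spread of single genes was wide, with a median SE of 0.45 for mammary-enriched and 0.18 for shared genes.

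Liver-enriched genes, defined in the same way in the other direction, had 56 of 542 at unadjusted p under 0.05 with 12 libraries (10.3% beside 4.75%), 35 higher and 21 lower. In the 10 libraries this was 33 of 520 (6.35% beside 5.38%), 13 higher and 20 lower. Over the whole class 225 of 542 were higher with 12 libraries, with a median log2 fold change of -0.08, and 246 of 520 with 10, with a median of -0.02. That median was 0.13 without 26C alone and -0.23 without 21PS alone, so its sign depended on which of these cows was in the fit. These genes took 1.79% of the counts of 21PS and 1.98% of those of 26C, against 1.103 to 1.70% in the other 10 cows. The part of these cows in the larger count was not tested beyond leaving them out.

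The share of counts from mammary-enriched genes varied widely between cows of the same treatment. Mammary-enriched genes took 8.27% of counts in 19C, 8.47% in 21C, 8.35% in 23C, 10.3% in 24C, 18.3% in 25C and 8.51% in 26C. In phase shift cows they took 6.12% in 19PS, 6.85% in 21PS, 8.05% in 22PS, 13.8% in 23PS, 8.00% in 24PS and 6.71% in 26PS. Cow 25C among controls and cow 23PS among phase shift cows were the highest, and the groups overlapped. The means were 10.4% in control cows (SD 3.96, n = 6) and 8.24% in phase shift cows (SD 2.80, n = 6), a difference smaller than either SD. Without 26C and 21PS the means were 10.7% (SD 4.31, n = 5) and 8.52% (SD 3.04, n = 5). In bulk tissue more cells of a type and more RNA per cell cannot be told apart.

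A small set of genes carried the high shares of 25C and 23PS. In 25C, 70 genes exceeded by 4-fold or more the median of the other cows that do not stand apart, and in 23PS 73 did. The 43 genes in both lists are 61.4% and 58.9% of them, and 29 of the 43 (67.4%) are mammary-enriched, against 8.23% of all genes tested. The class was defined on the same mammary libraries, and high levels in 25C and 23PS raise the mammary mean. This share is therefore a description. In 25C the mammary-enriched members held 96.2% of the counts of the set.

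These 43 genes together took shares of counts that ranged 252-fold among the 10 cows that do not stand apart. They took 0.899% of counts in 19C, 1.72% in 21C, 0.341% in 23C, 2.79% in 24C and 10.1% in 25C. In phase shift cows they took 0.0403% in 19PS, 0.848% in 22PS, 6.45% in 23PS, 0.265% in 24PS and 0.0904% in 26PS. Cow 26C had 4.21% and cow 21PS 0.517%, but there the 29 mammary-enriched members took 0.0275% and 0.112% of counts, and the 14 other genes 4.19% and 0.405%. In the other 10 cows those 29 genes ranged from 0.00914% in 19PS to 9.75% in 25C. The control cows and the phase shift cows overlapped over most of this range, although the lowest 3 values were all of phase shift cows. In liver the same genes took 0.224 to 0.359% of counts.

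The median log2 fold change of the 43 genes was -0.86, with 41 of 43 lower under phase shifts and a median SE of 1.11. Of them 2 had an unadjusted p under 0.05 (beside 4.75% of all genes), and 0 of the 41 tested without 21PS and 26C did. The set was chosen on 1 cow of each group, so its counts are a description. Without the 29 mammary-enriched members, the other 1251 mammary-enriched genes took 6.91 to 8.55% of counts in control cows (mean 7.88%, SD 0.627, n = 6) and 6.11 to 7.80% in phase shift cows (mean 7.07%, SD 0.678, n = 6). The means differed by more than either SD, unlike those of the whole class, while the ranges overlapped. Without 21PS and 26C the means were 7.76% (SD 0.619, n = 5) and 7.13% (SD 0.735, n = 5), and differed by less than the SD of phase shift cows. This difference was not tested.

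**Figure D5:**
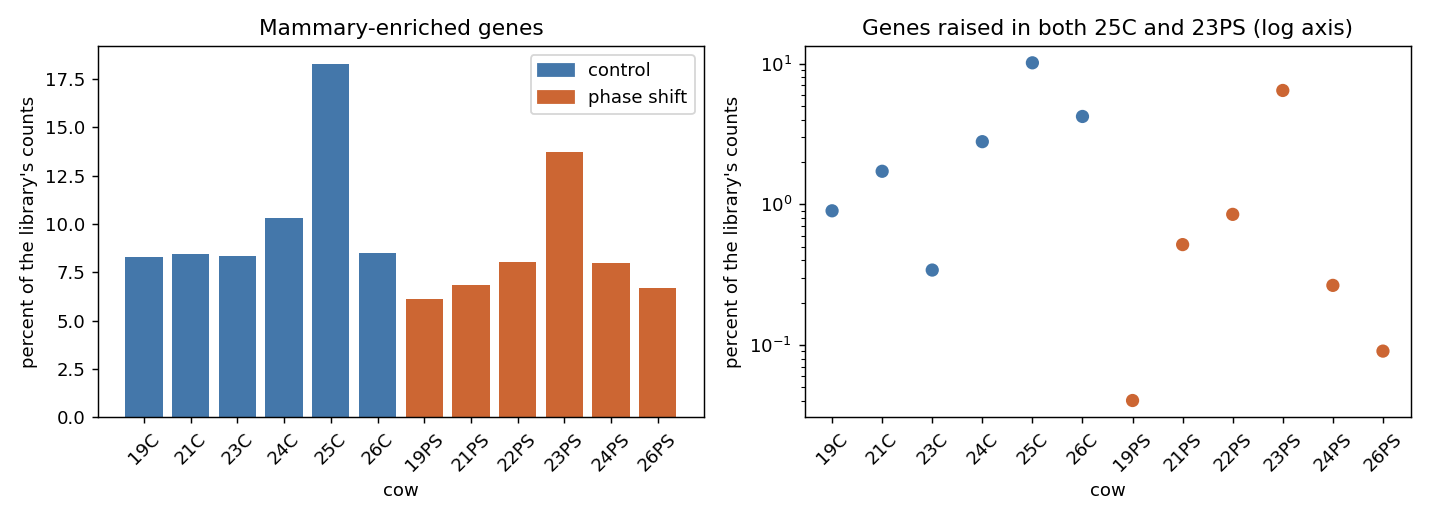
Left, percent of each library's counts taken by mammary-enriched genes. Right, percent taken by the 43 genes raised at least 4-fold in both 25C and 23PS, on a log axis, with 1 bar or point per cow, control in blue and phase shift in orange. Cows 25C and 23PS are highest on both sides, and the set spans 0.0403 to 10.1% among the cows.

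The 2 libraries that stand apart shared much of what set them apart, across the treatments. Of the raised genes 295 were the same, 62.1% of those of 21PS and 40.9% of those of 26C, and 4 genes moved 4-fold in opposite directions in these cows. The shared raised genes took 16.5% of the counts of 21PS and 18.8% of those of 26C, against 3.03 to 5.12% in the other 10 cows and 2.67 to 5.26% in liver. No other cow lay between these levels. Of the shared raised genes 95 (32.2%) were mammary-enriched. The class was defined on libraries that include 21PS and 26C, so this share is a description. Between treatments, 5 of the 295 shared raised genes had an edgeR unadjusted p under 0.05 with 12 libraries (beside 4.75% of all genes tested). Without 21PS and 26C 23 of 276 did (8.33% beside 5.38%), 10 higher and 13 lower. The genes were chosen for lying far from the other cows in a cow of each group, which widens the spread within both groups. Their median SE with 12 libraries was 0.85, beside 0.23 over all genes tested, so the low count there is a description.

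The 125 genes lowered at least 4-fold in both had summed levels that also ranged widely over the other cows. They took 0.0237% of counts in 26C and 0.118% in 21PS. In the other control cows they took 0.446% in 23C, 1.02% in 19C, 1.86% in 21C, 2.67% in 24C and 8.54% in 25C. In the other phase shift cows they took 0.157% in 19PS, 0.215% in 26PS, 0.369% in 24PS, 0.895% in 22PS and 6.00% in 23PS. Of these genes 66 (52.8%) were mammary-enriched, and 11 also belong to the 43 genes above. These sums are carried by the most abundant genes. As the median over the 125 genes of the log2 difference from the other cows, 25C (0.51), 21C (0.42) and 24C (0.21) were highest and 23PS stood at 0.10, while 19PS, at -0.51, was far from 21PS at -2.66 and 26C at -2.71. Their median log2 fold change was -0.41 with 12 libraries and -0.43 without 21PS and 26C. With 12 libraries 2 of the 125 had an unadjusted p under 0.05 (beside 4.75% of all genes tested). In the 10 libraries 20 of 124 did (16.1% beside 5.38%), 16 lower and 4 higher, and 0 were called in edgeR. With 12 libraries the choice of these genes widened their spread within both groups, with a median SE of 0.68, so the low count there is a description.

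With 21PS and 26C left out, the largest remaining pattern was also one between cows. The first principal component of log2 CPM held 31.3% of the variance of the 10 libraries. Control cows scored from -32.8 to 29.3 and phase shift cows from -47.8 to 52.2, so the groups overlapped. Both ends were phase shift cows, 19PS at the low and 23PS at the high end.

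Phase shift cows differed more among themselves than control cows did in the 10 libraries, and this rested on 1 cow. The median SD of log2 CPM was 0.29 among 5 phase shift cows and 0.26 among 5 control cows, and the SD was larger in phase shift cows for 59.5% of genes. Without 23PS the SD was larger in phase shift cows for 48.2% of genes, and leaving out any other single cow gave 54.8 to 65.7%. With all 12 libraries the share was 49.1%. This difference in spread was not tested.

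The response in mammary was not detectably different from that in liver in the same study. In an edgeR fit over all 24 libraries, 0 of 16656 genes (0%) passed an adjusted p of 0.05 for the difference between the tissue responses, with a lowest adjusted p of 0.737 and 1111 genes (6.67%) at unadjusted p under 0.05. Without the mammary libraries of 21PS and 26C, 0 of 16783 genes passed and 942 (5.61%) had an unadjusted p under 0.05. DESeq2 called 1 gene over all libraries, with 1171 of 23311 (5.02%) at unadjusted p under 0.05. Limma-voom called 0, with 616 of 16656 (3.70%) at unadjusted p under 0.05. For 49.1% of genes the 95% confidence interval of that difference stayed inside 2-fold, and for 54.6% without those libraries. For the other genes that interval reached beyond 2-fold. Its width does not show which differences between the tissues could be detected. The edgeR fit over all 24 libraries, which also gave the tissue differences of the named genes, takes libraries of 1 cow as independent. With the cow as a block, over cows with both tissues, 0 of 16818 genes passed and 694 (4.13%) had an unadjusted p under 0.05.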

How the data were processed

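The submitters' processing notes name Trimmomatic 0.36, STAR 2.5.2b, the build ARS-UCD1.2, featureCounts of Subread 1.5.2 and DESeq2. RNA was depleted of ribosomal RNA and sequenced as paired reads, per the labels' protocols. No source used here gives the strand setting or annotation release, and overlapping genes and near-identical copies may share reads. The authors deposited raw counts for 27607 gene IDs, of which 23653 had a mammary read, and regularized log2 values for 15840. Tests used the deposited counts, and the log2 values served for an alternative.

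The treatments were compared with edgeR 4.0.16 (R 4.3.3): quasi-likelihood F test, robust dispersion, TMM scaling, filterByExpr with a minimum count of 10 and total of 15, Benjamini-Hochberg adjustment over all genes tested, threshold 0.05. DESeq2 1.42.0 and limma 3.58.1 were alternatives. Confidence intervals (95%) come from the edgeR fit. CPM uses TMM library sizes, and log2 CPM a prior count of 2. The tests were checked on simulated data. Total counts were 5.05 to 13.1 M (mega counts), and precision rests on them and on the spread between cows. The 12 mammary libraries came from separate cows, and no 2 of them held the same counts (at least 20085 genes differed). Liver libraries came in part from the same cows.

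The named genes are the 2 of smallest p in each direction, the rule for IDs without symbols. The 30 gene lists written by symbol and the correlations of clock genes could not be run, since 0 IDs matched. Members, classes and lists were chosen with earlier results of these data known.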

Additional observations from a re-analysis of the deposited data

Results flagged for a closer look

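Dixon's test at the 95% level was applied to the highest and lowest of the 6 cows of each group. Of 30 sets of 6 values 11 gave a cow far from the rest, where 1.5 would be expected by chance for independent measures. Several of the measures are not independent, and 21PS and 26C were known beforehand to stand apart. The 4-fold numbers are also taken against medians that leave these 2 cows out. The 11 are therefore a description and no test against chance. Control cow 26 lay far from its group in its score on the first principal component (121, next -6.94), its median rank correlation with the other mammary libraries (0.860, next 0.955) and with liver (0.762, next 0.740). It did so also in its 721 genes 4-fold higher (next 70) and 735 genes 4-fold lower (next 115). Phase shift cow 21 lay far from its group in its score on that component (78.9, next -4.13), its rank correlation with the other mammary libraries (0.899, next 0.946), its 475 genes 4-fold higher (next 73) and its 310 genes 4-fold lower (next 119). The share of counts from mammary-enriched genes was far from the group in control cow 25 (18.3%, next 10.3%) and in phase shift cow 23 (13.8%, next 8.05%).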

How the results depend on the processing

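The number of genes called in mammary was 0 in every setting run except DESeq2 without 21PS and 26C, which called 19 genes. It was 0 to 0 when single libraries were left out. The number at unadjusted p under 0.05 was 739 (4.75%) with edgeR on 12 libraries. It was 1724 of 15547 (11.1%) in limma-voom with sample quality weights, beside the 5% of an even spread. With single libraries left out it was 474 (3.07%) to 1251 (8.07%). With the shared cow number as a replicate block it was 168 in edgeR on 12 libraries and 149 without 21PS and 26C, with 0 genes called in both. No label says what the shared numbers mean. Between cows of the same number, the correlation of deviations from the group means exceeded 0.1 for 1 of 5 pairs. It ran from -0.38 to 0.17, and 0 of 10 libraries correlated best with their own number. The group means include 21PS and 26C, so these correlations cannot decide whether the numbers pair the cows. The interaction with tissue called 0 genes in every setting run, the cow as a block included, except DESeq2, which called 1. The 4 named genes kept their direction in every setting that tested them, 24 for 3 of them and 20 for ENSBTAG00000047138. Limma-voom without 21PS and 26C was added after the data were seen. The median of the shared genes was 0.03 without control cow 26. Not run, for want of gene symbols, were the alternatives for the gene lists and for the correlations of clock genes. Intervals were widest for genes of low abundance.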
